A study of Mus musculus with 16 samples.

Results

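The regulators of G-protein signalling (RGS) were followed in astrocyte and whole-tissue RNA from the somatosensory cortex of naïve and stressed mice. The members were 10 genes picked by symbol, Rgs2, Rgs3, Rgs4, Rgs5, Rgs6, Rgs7, Rgs8, Rgs12, Rgs14 and Rgs20, of 21 genes named Rgs and of 24060 genes listed in each library. This set was picked after Rgs2 had been seen to be higher in the astrocyte RNA of stressed mice, so every stress value in that fraction is given as a description with no test, and the same holds for Rgs2 against whole-tissue RNA. All 10 genes were found in all 16 libraries and all had a mean above 1 CPM, the reads of a gene scaled to a library total of 1000000, in each of the 4 groups.

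All mice, naïve ones included, were Aldh1l1CreERT2-RiboTag on C57BL/6J, 3 months old, and had received tamoxifen at 2 months. In these mice Cre driven by the astrocyte gene Aldh1l1 switches on an HA-tagged ribosomal protein, so that the IP libraries hold RNA pulled down with tagged ribosomes and the INPUT libraries hold RNA of the cleared lysate with all cell types. Stressed mice swam for 20 min and recovered for 90 min, and naïve mice stayed in the home cage. Each of the 4 groups had 4 libraries, called replicates by library number, with 2, 8, 11 and 13 for naïve IP and 4, 5, 6 and 15 for stress IP. In INPUT they were 3, 7, 14 and 16 for naïve and 1, 9, 10 and 12 for stressed mice. The labels do not tie an IP library to the INPUT library of its mouse, and no pairing was used. Values per library are given in this order.

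Between 16392876 and 25814364 reads per library lay on genes, and 3 reads correspond to at most 0.183 CPM. The members had from 23 reads (Rgs14 in stress IP) to 14754 reads (Rgs4 in stress INPUT) in a library. The fraction labels were checked on markers. The 6 astrocyte markers had IP levels of 1071% to 1753% of INPUT in naïve mice, and the 6 neuron markers had 3.76% to 6.89%. Naïve IP replicate 11 is known from earlier work on these data to stand apart for some genes, and the log2 ratios of Rgs2, Rgs5, Rgs6 and Rgs7 that rest on it are also given without it.

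RGS proteins bind the active, GTP-loaded α subunit of a heterotrimeric G protein and speed its return to the GDP-bound state, which shortens the signal of the receptor upstream. The R4 subfamily (here Rgs2, Rgs3, Rgs4, Rgs5 and Rgs8) consists mostly of small proteins with little beside the RGS domain. The R7 subfamily (Rgs6 and Rgs7) works as a complex with the β subunit Gnb5. R12 proteins (Rgs12 and Rgs14) carry a GoLoco motif that binds inactive α subunits, and Rgs20 belongs to the RZ subfamily, known for acting on Gαz. In cortex, Rgs4 is known as a neuronal transcript, Rgs5 as a marker of pericytes, and Rgs2 as a gene that many stimuli induce rapidly.

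All 10 members are protein coding genes on GRCm38, and 6 of them lie on chromosome 1. Rgs2 spans chr1:143999338-144004161 on the minus strand. Rgs4 (chr1:169741477-169747642, minus strand) and Rgs5 (chr1:169655501-169695813, plus strand) are neighbours with 45663 bases between them. Rgs20 covers chr1:4909576-5070285, Rgs12 chr5:34949445-35039644 and Rgs3 chr4:62559847-62704001. Other annotated genes on the opposite strand overlap 5.94% of the exon bases of Rgs20 and 5.50% of those of Rgs12. How reads of such overlaps were split by strand is not given in the sources used here.

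The promoters of Rgs2, on which the set was picked, and of Rgs4, the member with the highest INPUT level, are shown as the 250 bases before the transcript start. They come from the RefSeq table of GRCm38.p6, which matched 8 of the 10 members with 12 promoters. Capitals mark TGACG, the core letters of the cAMP response element, on either strand (CGTCA on the other), and TATAAA, the letters of a TATA box, on either strand.
Rgs2 promoter, chr1:144004150-144004399, minus strand: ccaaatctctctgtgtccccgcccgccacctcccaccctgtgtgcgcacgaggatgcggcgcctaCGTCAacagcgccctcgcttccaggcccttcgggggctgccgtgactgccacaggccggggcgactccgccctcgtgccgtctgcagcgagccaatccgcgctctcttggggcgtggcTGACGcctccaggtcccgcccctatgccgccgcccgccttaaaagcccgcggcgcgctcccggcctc
Rgs4 promoter, chr1:169747643-169747892, minus strand: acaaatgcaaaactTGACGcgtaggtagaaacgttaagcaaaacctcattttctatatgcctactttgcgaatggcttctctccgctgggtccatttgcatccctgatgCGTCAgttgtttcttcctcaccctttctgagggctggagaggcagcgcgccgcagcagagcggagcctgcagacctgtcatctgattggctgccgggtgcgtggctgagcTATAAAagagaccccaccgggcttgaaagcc
Both promoters hold 2 copies of TGACG, and that of Rgs4 also holds 1 TATAAA. In windows of 300 bases that reach 50 bases past the start, TGACG occurred in 4 of the 12 member promoters (those of Rgs2, Rgs4, Rgs8 and Rgs12) and in 20.8% of all 32851 promoters. TATAAA occurred in 3 member promoters (of Rgs3 and Rgs4) and in 13.6% of all. These are matches of letters in a window and say nothing of binding.

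The members were first placed between astrocyte and whole-cortex RNA. In naïve mice Rgs12, Rgs20 and Rgs3 were higher in IP than in INPUT, 3 of the 9 tested members, where 23.7% of all 13339 genes tested were higher. Rgs4, Rgs14, Rgs8, Rgs5, Rgs7 and Rgs6 were lower, 6 of 9, where 64.0% of all genes were. These shares lie near those of all genes, and the members are of interest one by one rather than as a count. The same 3 genes were higher and the same 6 lower in stressed mice, in other libraries, beside 23.6% and 62.5% of all 13333 genes tested. Values are shares of each library. The median log2 ratio of IP to INPUT over all genes was −0.64 in naïve and −0.63 in stressed mice, and the ratio of a member is to be read beside it. What sets this median was not tested. In such bulk RNA, fewer cells of a type and less RNA per cell cannot be told apart.

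Rgs20, the RZ member, had the highest ratio of IP to INPUT among the members. Its level was 86.7, 88.3, 87.5 and 94.1 CPM in naïve IP and 19.5, 25.7, 20.2 and 21.6 CPM in naïve INPUT, and these libraries did not overlap. The log2 ratio was 2.04 (standard error 0.08), a 4.11-fold difference, with an adjusted p of 2.65e-11 (limma, Benjamini-Hochberg). In stressed mice it was 80.4, 102, 102 and 99.9 CPM in IP against 18.9, 17.6, 20.5 and 21.4 CPM in INPUT, a log2 ratio of 2.28 (standard error 0.09, limma adjusted p = 1.33e-10).

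Rgs12, a large multidomain scaffold as well as a GTPase-activating protein, also lay on the IP side. It was 108, 101, 101 and 98.7 CPM in naïve IP and 31.3, 33.6, 39.0 and 34.4 CPM in naïve INPUT, a log2 ratio of 1.56 (standard error 0.07, limma adjusted p = 8.15e-11). In stressed mice the IP libraries held 88.0, 104, 102 and 114 CPM and the INPUT libraries 32.5, 34.2, 32.5 and 34.4 CPM, a log2 ratio of 1.60 (standard error 0.08, limma adjusted p = 7.80e-10). Every IP library was thus above every INPUT library for both genes.

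Rgs3 was the one R4 member on the IP side. Its naïve IP libraries held 18.5, 20.7, 20.95 and 20.2 CPM and its naïve INPUT libraries 11.0, 8.12, 9.18 and 11.0 CPM, a log2 ratio of 1.03 (standard error 0.11, limma adjusted p = 8.12e-07). In stressed mice it held 23.2, 22.8, 26.5 and 20.5 CPM in IP and 6.83, 6.83, 8.77 and 8.39 CPM in INPUT. The log2 ratio there was 1.58 (standard error 0.12, limma adjusted p = 5.45e-08). The 95% intervals of the ratios were 0.80 to 1.27 in naïve and 1.32 to 1.84 in stressed mice. The difference between them contains the stress contrast on which the set was picked and was not tested.

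The 2 R7 members lay between the extremes. Rgs7 had 58.0, 48.4, 42.1 and 62.8 CPM in naïve IP and 128, 143, 130.1 and 152 CPM in naïve INPUT, a log2 ratio of −1.40 (standard error 0.11, limma adjusted p = 2.93e-08). In stressed mice its log2 ratio was −1.38 (standard error 0.09, limma adjusted p = 1.09e-08). Both values are below the median of all genes, and no IP library reached an INPUT library. Without naïve IP replicate 11, which held the lowest value, the naïve log2 ratio of Rgs7 was −1.30.

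Rgs6, which with Gnb5 acts on Gi and Go signals, was nearly as high in IP as in INPUT. It had 54.5, 55.3, 42.8 and 56.2 CPM in naïve IP and 72.8, 70.1, 62.6 and 69.8 CPM in naïve INPUT. The log2 ratio was −0.40 (standard error 0.09, limma adjusted p = 0.000657) in naïve and −0.34 (standard error 0.06, limma adjusted p = 0.000288) in stressed mice, but after median-ratio rescaling of the libraries it turned to 0.24 and 0.29, both past the threshold in the other direction. Without naïve IP replicate 11, which held the lowest value, the naïve log2 ratio was −0.31. Rgs6 lay 0.23 above the median of all genes in naïve and 0.30 above it in stressed mice, so its side depends on the scaling. The other 8 tested members kept their side and their call under each of the 14 alternatives to the reported fit in each condition, among them the one without naïve IP replicate 11.

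The pericyte gene Rgs5 was lower in IP and had the largest coefficient of variation among the members within each of the IP groups. Its naïve IP libraries held 6.27, 9.09, 5.05 and 10.6 CPM against 24.7, 24.5, 18.5 and 24.1 CPM in naïve INPUT, a log2 ratio of −1.60 (standard error 0.20, limma adjusted p = 3.47e-06). In stressed mice it held 9.37, 11.6, 4.24 and 10.5 CPM in IP against 24.9, 17.7, 20.4 and 22.5 CPM in INPUT, a log2 ratio of −1.33 (standard error 0.26, limma adjusted p = 0.000341). Without naïve IP replicate 11, which held the lowest naïve IP value, the naïve log2 ratio of Rgs5 was −1.42. Within IP its coefficient of variation was 32.7% in naïve and 36.4% in stressed mice, beside medians over the members of 8.85% and 11.7%, with Rgs14 close to it in stressed mice at 35.3%. Of the 6 mural cell markers, the pericyte channel subunits Kcnj8 and Abcc9 had 0.252 and 1.27 CPM in naïve IP, 6.43% and 10.0% of INPUT, and Kcnj8 was at 0 in 1 stress IP library. Vtn had 39.0% of INPUT, Acta2 10.6% and Anpep 120%, and Pdgfrb had 520% with 132 CPM in naïve IP. The summed mural markers ranged from 145 to 203 CPM in naïve IP, from 120 to 153 in stress IP, from 106 to 127 in naïve INPUT and from 103 to 129 in stress INPUT. Pdgfrb made up 132 CPM of the mean sum of 164 CPM in naïve IP, and 25.4 of 116 CPM in naïve INPUT. The naïve IP sum thus mainly shows that gene. The part of the mural markers in the Rgs5 values was not tested.

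Rgs8, Rgs14 and Rgs4 had the lowest ratios among the tested members. Rgs8, known from Purkinje cells and other neurons, had 7.98, 6.90, 9.63 and 9.41 CPM in naïve IP and 98.7, 96.9, 107 and 90.9 CPM in naïve INPUT, a log2 ratio of −3.53 (standard error 0.10, limma adjusted p = 8.58e-13). Rgs14, a scaffold best known from hippocampal pyramidal neurons, had 2.15, 2.02, 1.88 and 2.05 CPM in naïve IP and 36.7, 32.4, 37.9 and 38.7 CPM in naïve INPUT, a log2 ratio of −4.10 (standard error 0.10, limma adjusted p = 2.03e-13). Rgs4 had 36.8, 23.2, 34.3 and 30.4 CPM in naïve IP and 785, 636, 660.1 and 657 CPM in naïve INPUT, a log2 ratio of −4.47 (standard error 0.12, limma adjusted p = 3.67e-13). For all 3 genes the IP libraries lay far below every INPUT library. In stressed mice the log2 ratios were −3.73, −4.30 and −4.73, in the same order.

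Rgs2, a regulator that prefers Gαq, is described without a test. It had 7.00, 6.45, 7.09 and 7.24 CPM in naïve IP and 53.2, 47.3, 66.0 and 54.4 CPM in naïve INPUT, a log2 ratio of −2.96. Without naïve IP replicate 11 this ratio was −2.97. In stressed mice the IP libraries held 11.4, 10.5, 9.26 and 10.0 CPM and the INPUT libraries 59.8, 67.5, 55.1 and 60.9 CPM, a log2 ratio of −2.55. Its INPUT level was above every IP level in both conditions.

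**Figure D1:**
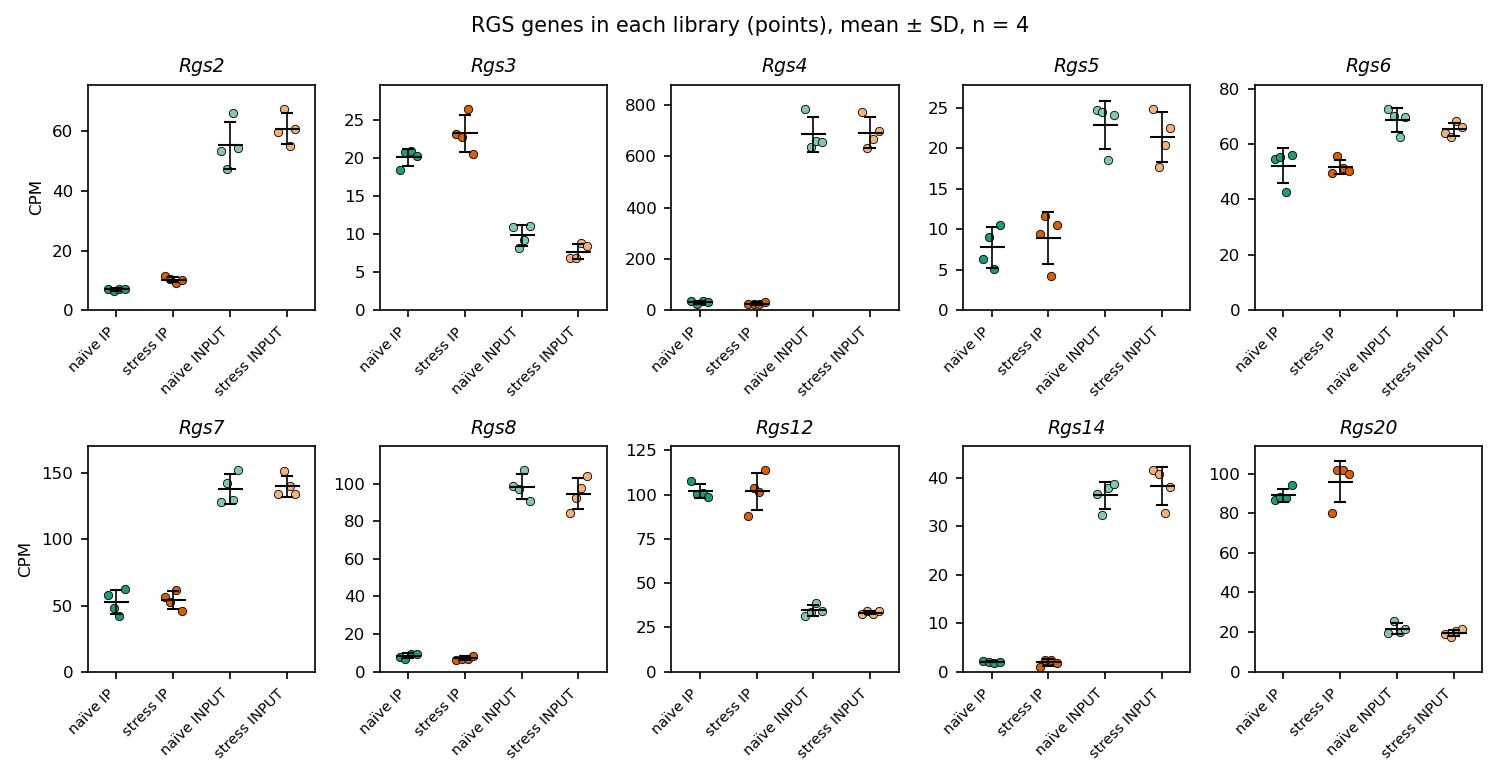
CPM of each of the 10 RGS genes (vertical axis, from 0, with its own scale in each panel) in the 4 libraries of each fraction and condition; points are libraries and bars are the mean ± SD (n = 4). Rgs3, Rgs12 and Rgs20 were higher in IP, and the other 7 genes were higher in INPUT, by the smallest ratio for Rgs6 (52.2 against 68.8 CPM in naïve mice), whose side turned after rescaling.

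**Figure D2:**
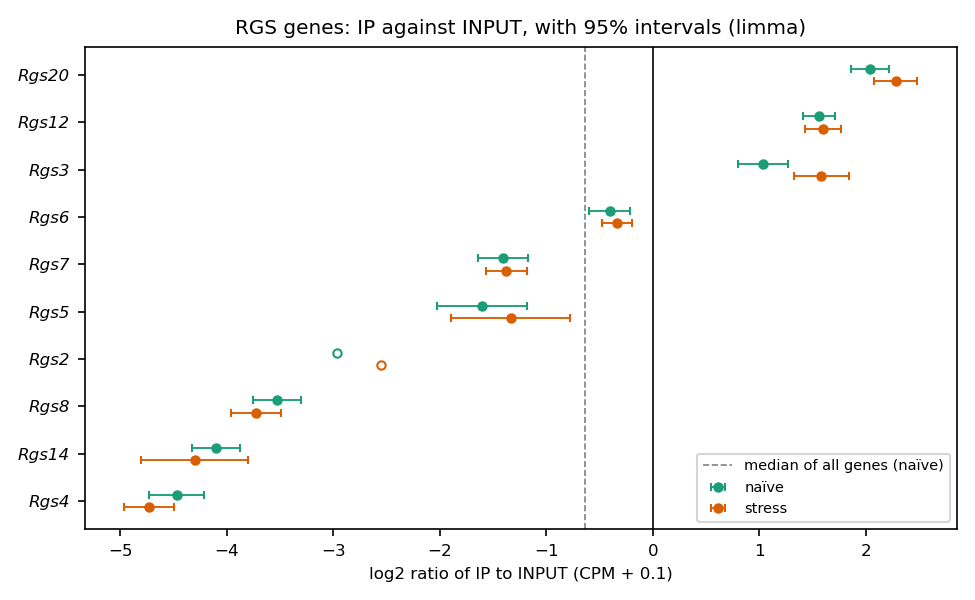
The log2 ratio of IP to INPUT (horizontal axis, on CPM + 0.1) for each RGS gene in naïve and stressed mice, with 95% intervals from limma; Rgs2 is drawn open and without an interval because it was not tested. The dashed line is the median of all genes in naïve mice (−0.64), and Rgs6 lies between it and 0.

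The IP levels of the lower members were set beside markers of other cells. As a share of the INPUT level, naïve IP held 4.55% of Rgs4, 5.56% of Rgs14, 8.62% of Rgs8 and 12.6% of Rgs2. Rgs4 and Rgs14 thus lay within the 3.76% to 6.89% of the 6 neuron markers Rbfox3, Snap25, Syt1, Slc17a7, Gad1 and Gad2, none of which was at 0 in any library. Rgs8 and Rgs2 lay above that range. In stressed mice the neuron markers held 2.89% to 6.04%, Rgs4 3.78%, Rgs14 5.06%, Rgs8 7.49% and Rgs2 16.9%. Rgs4 and Rgs14 lay inside the neuronal range again and the other two above it.

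The share of Rgs2 lay within the range of the microglia and endothelial markers and above that of the oligodendrocyte markers. In naïve mice the 5 microglia markers held 5.18% to 14.8% of INPUT, the 4 endothelial markers 6.18% to 26.7% and the 4 oligodendrocyte markers 6.71% to 10.2%. In stressed mice P2ry12 of microglia held 19.0%, and Flt1 of endothelium 24.6%, both above the 16.9% of Rgs2. RNA of other cells in the IP and a low level in astrocytes cannot be told apart for these members.

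**Figure D3:**
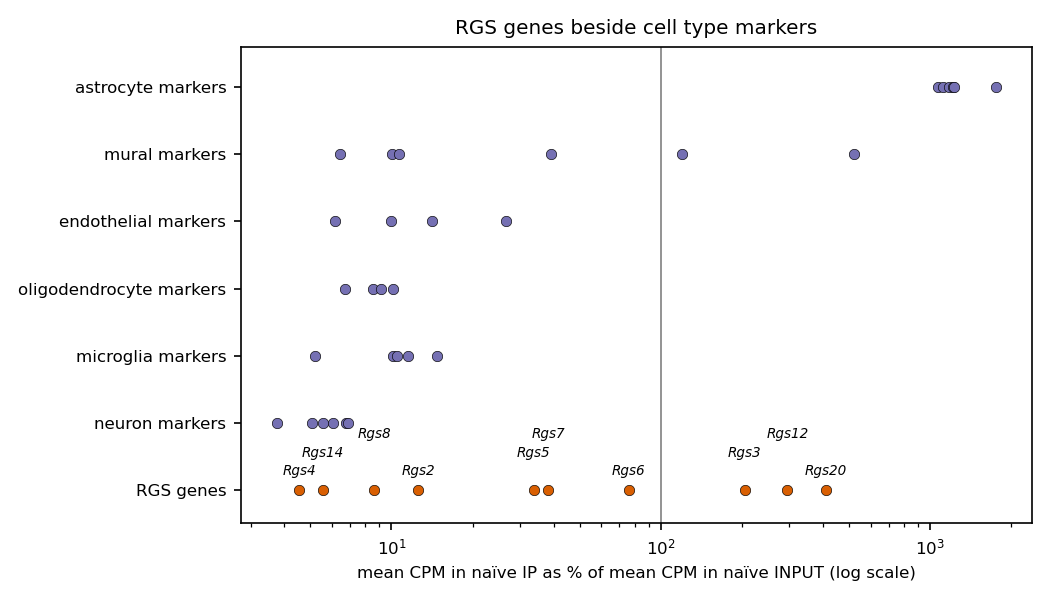
Mean CPM in naïve IP as a percentage of mean CPM in naïve INPUT (horizontal axis, logarithmic; the line marks equal levels) for the RGS genes and for the genes of 6 lists of cell type markers. Rgs4 and Rgs14 lie within the neuron markers, and Rgs20 at 410% is below every astrocyte marker (1071% and above).

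Levels were compared between members per kilobase of merged exons. In naïve IP the order of the mean CPM per kb was Rgs20 (21.03), Rgs12 (12.0), Rgs4 (10.1), Rgs7 (8.77), Rgs6 (5.21), Rgs2 (1.91), Rgs3 (1.86), Rgs5 (1.70), Rgs8 (0.880) and Rgs14 (0.478). The ranges of the 4 libraries overlapped between Rgs12 and Rgs4, Rgs4 and Rgs7, Rgs2 and Rgs3, and Rgs3 and Rgs5, so these neighbours were not set apart by their spread. With the length of the longest transcript instead, 6 of the 10 kept their place, while Rgs7 passed Rgs4 and Rgs3 passed Rgs2. Rgs4 thus ranked among the upper members in IP in spite of its low share of INPUT.

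In naïve INPUT the order was Rgs4 (221 CPM per kb), Rgs7 (23.0), Rgs2 (15.2), Rgs8 (10.2), Rgs14 (8.59), Rgs6 (6.87), Rgs20 (5.13), Rgs5 (5.04), Rgs12 (4.07) and Rgs3 (0.909). Here the ranges overlapped between Rgs20 and Rgs5 and between Rgs5 and Rgs12. The 3 members on the IP side were thus among the last 4 in whole cortex. After stress the IP order changed only between Rgs7 (9.02) and Rgs4 (8.43), whose ranges overlapped, and Rgs2 at 2.84 CPM per kb no longer overlapped Rgs3 at 2.15. This depends on the length used. With the longest transcript the mean of Rgs3 was above that of Rgs2, 4.28 against 2.30 in naïve IP and 4.95 against 3.40 in stress IP. The INPUT order changed only between Rgs5 (4.70) and Rgs20 (4.63), which overlapped too.

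**Figure D4:**
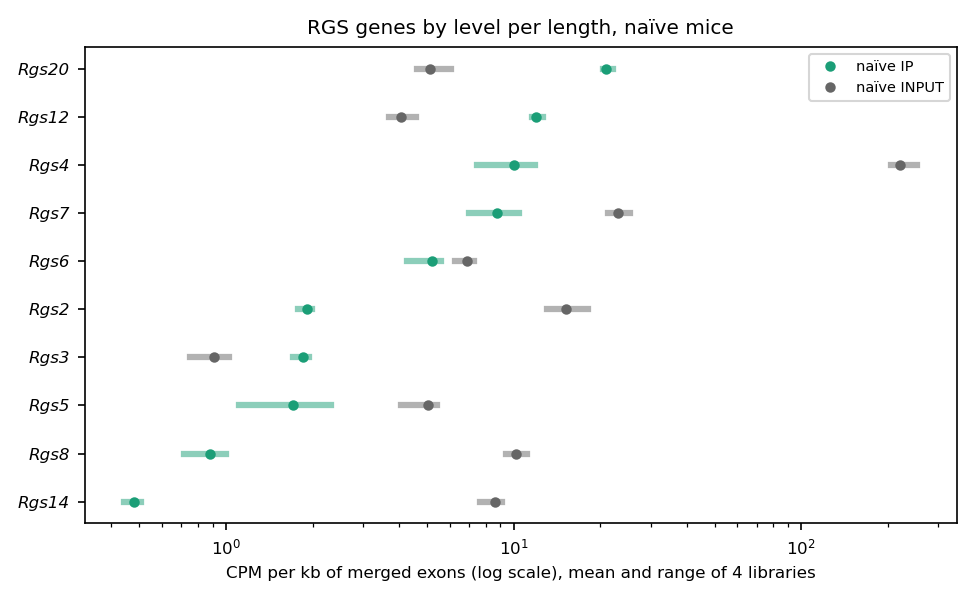
Mean (point) and range (bar) of CPM per kb of merged exons over 4 libraries (horizontal axis, logarithmic) for each RGS gene in naïve IP and naïve INPUT. Rgs20 and Rgs12 lead in IP, and Rgs4 leads in INPUT with 221 CPM per kb.

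The effect of swim stress was tested in INPUT, the fraction that was not used to pick the set. None of the 10 members passed the threshold (limma, 0.0442% of 13577 genes did), and limma-voom called 0 of them as well. An unadjusted limma p under 0.05 was found for 1 member, Rgs3, and for 683 of all 13577 genes, so this count does not set the members apart. The mean of Rgs3 was 9.82 ± 1.42 CPM without and 7.70 ± 1.02 CPM with stress (SD, n = 4 each), with stress values from 6.83 to 8.77 and naïve values from 8.12 to 11.0 CPM that overlapped. Its log2 ratio was −0.34 (95% interval −0.63 to −0.06, limma adjusted p = 0.915).

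The mean of Rgs2 in INPUT was 55.2 ± 7.83 CPM without and 60.8 ± 5.12 CPM with stress (SD, n = 4), and its libraries overlapped. The log2 ratio was 0.15 (95% interval −0.06 to 0.35, limma adjusted p = 0.994). Rgs20 had a log2 ratio of −0.14 (95% interval −0.36 to 0.07) and Rgs5 one of −0.10 (95% interval −0.36 to 0.15). The other 6 lay between −0.07 and 0.07. The 95% intervals of all 10 lay between −0.63 and 0.35, and these bound the changes that the 4 libraries of each group leave possible at this level. No member had stress and naïve INPUT libraries without overlap, beside 1.43% of all genes with all stress libraries higher and 1.44% with all lower.

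In IP, the fraction on which the set was picked, the members are described. The mean of Rgs2 was 6.95 ± 0.346 CPM without and 10.3 ± 0.885 CPM with stress (SD, n = 4), with every stress library (9.26 to 11.4 CPM) above every naïve one (6.45 to 7.24 CPM). The log2 ratio was 0.56, a 1.47-fold difference, and 0.57 without naïve IP replicate 11. Each value rests on 143 to 255 reads. Over the 14 alternatives the ratio ranged from 0.50 to 0.61. These alternatives reuse the libraries on which Rgs2 was picked, so a similar ratio in them is no independent support.

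Rgs2 was the 1 member of 10 whose IP groups did not overlap, and this is the value that led to the choice of the set. Over all 12501 genes tested in IP, 2.38% had all stress libraries higher, 2.62% had all lower, and 0.440% passed the limma threshold in either direction. Without stress IP replicate 15, Rgs3 (higher) and Rgs8 (lower) also had no overlap, which makes 3 members, and without replicate 4 Rgs20 (higher) did, which makes 2. The shares of all genes above are for all libraries. They were not counted with a library left out, where groups separate more readily, so these larger counts have no background beside them.

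The other 9 members had smaller differences in IP. The log2 ratio of stress to naïve was 0.21 for Rgs3, 0.17 for Rgs5, 0.10 for Rgs20, 0.05 for Rgs7, −0.01 for Rgs6, −0.01 for Rgs12, −0.13 for Rgs14, −0.25 for Rgs4 and −0.25 for Rgs8. Several of these rested on 1 library. Rgs5 was 0.49 without stress replicate 6, 0.01 without stress replicate 5 and −0.02 without naïve replicate 11, and Rgs14 was 0.13 without stress replicate 4. Without naïve replicate 11, Rgs7 was −0.05 and Rgs6 −0.10. Rgs3 had 20.1 ± 1.13 CPM without and 23.2 ± 2.45 CPM with stress (SD, n = 4), and only its stress replicate 15 (20.5 CPM) lay within the naïve range. Rgs4 had 31.2 ± 5.95 and 26.1 ± 4.50 CPM, and Rgs8 had 8.48 ± 1.29 and 7.08 ± 1.02 CPM (SD, n = 4 each). Of the 4 stress libraries, 1 lay below the lowest naïve library for Rgs4 and 3 did for Rgs8, and replicate 15 lay within the naïve range for both genes.

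The summed neuron markers in IP were 423 to 551 CPM in naïve and 334 to 492 CPM in stressed mice. Their part in the lower Rgs4 and Rgs8 values was not tested. The summed microglia markers were 18.1 to 22.9 CPM in naïve and 16.6 to 27.8 CPM in stress IP. The endothelial sum was 8.68 to 12.4 CPM in naïve and 6.59 to 8.53 CPM in stress IP, that of oligodendrocytes 14.0 to 19.6 and 13.9 to 16.4 CPM. The part of RNA from these cells in the Rgs2 values was not tested.

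**Figure D5:**
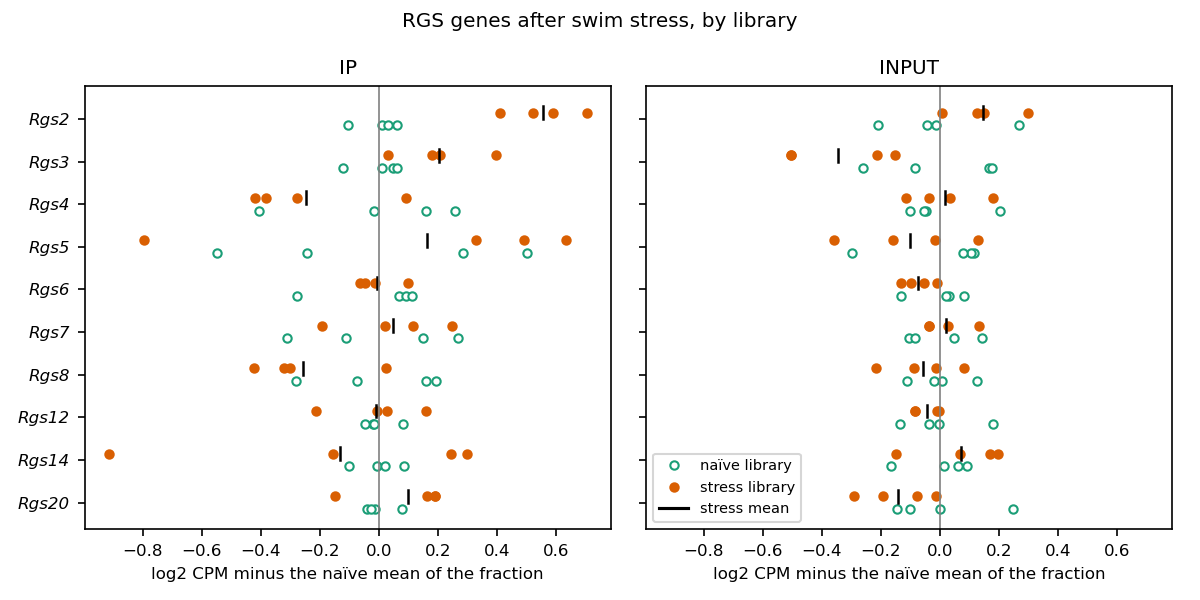
log2 CPM of each library minus the naïve mean of its fraction (horizontal axis) for each RGS gene in IP (left) and INPUT (right); open points are naïve libraries, filled points stress libraries and black bars the stress mean. In IP only Rgs2 has all 4 stress libraries beyond the naïve ones, and in INPUT no gene has.

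The wider RGS and G-protein genes were read from 5 lists chosen with earlier results known. Of 11 other RGS genes, 7 were expressed enough to test. In naïve mice 6 of them were lower in IP than in INPUT, 0 were higher and 1, Rgs9, did not pass (log2 ratio −0.19, limma adjusted p = 0.152), with a list median of −1.79 beside −0.64 for all genes. Rgs10, known from microglia, had the lowest log2 ratio of the lists at −4.16, from 1.31 ± 0.262 CPM in IP to 25.0 ± 2.79 CPM in INPUT (SD, n = 4 each, limma adjusted p = 7.75e-12). In stressed mice 6 of the 7 were lower and 0 higher again. Of all genes, 64.0% were lower and 23.7% higher in naïve mice, and 62.5% and 23.6% in stressed mice. After rescaling, 5 were lower and 1 higher in naïve mice, and 6 and 1 in stressed mice. The shares of all genes were then 42.2% lower and 42.0% higher in naïve mice, and 41.3% and 41.0% in stressed mice.

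Among the 5 partners of R7 proteins, 4 were tested, and 3 were lower and 1 higher in IP in each condition. Of all genes, 64.0% were lower and 23.7% higher in naïve mice, and 62.5% and 23.6% in stressed mice. After rescaling the counts of partners were the same. The shares of all genes were then 42.2% lower and 42.0% higher in naïve mice, and 41.3% and 41.0% in stressed mice. The orphan receptors Gpr158 and Gpr179, both known to anchor R7 complexes at the membrane, lay on opposite sides. Gpr158 had 33.5 ± 1.98 CPM in naïve IP and 394 ± 5.42 CPM in naïve INPUT, a log2 ratio of −3.55 (standard error 0.05, limma adjusted p = 7.50e-15). Gpr179 had 14.0 ± 3.73 and 1.08 ± 0.426 CPM (SD, n = 4 per group), and the log2 ratio was 3.63 (standard error 0.28, limma adjusted p = 3.27e-08). In stressed mice the log2 ratio of Gpr179 was 3.72.

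Of the 11 tested Gα subunits, the proteins on which RGS proteins act, 5 were higher and 6 lower in IP in each condition, and 6 were higher and 5 lower after rescaling. Of all genes, 23.7% were higher and 64.0% lower in naïve mice, and 23.6% and 62.5% in stressed mice. After rescaling these shares were 42.0% and 42.2% in naïve and 41.0% and 41.3% in stressed mice. The list median was −0.28 in naïve mice beside −0.64 for all genes. Gna13 had 485 ± 37.1 CPM in naïve IP and 78.8 ± 2.74 CPM in naïve INPUT, a log2 ratio of 2.62 (standard error 0.06, limma adjusted p = 9.03e-14), and 2.70 in stressed mice. Gnal, the Gα of olfactory and striatal neurons, had 20.3 ± 2.92 and 245 ± 17.4 CPM (SD, n = 4 per group), and the log2 ratio was −3.59 (standard error 0.09, limma adjusted p = 2.05e-13).

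Of the 15 tested effectors (phospholipases Cβ, adenylyl cyclases and GIRK channels), 13 were lower and 2 higher in IP in each condition, beside 64.0% of all genes lower and 23.7% higher in naïve mice and 62.5% and 23.6% in stressed mice. The list median was −2.05 in naïve and −2.002 in stressed mice, beside −0.64 and −0.63 for all genes. After rescaling 11 were lower in naïve and 12 in stressed mice, and 2 were higher in both, beside 42.2% of all genes lower and 42.0% higher in naïve and 41.3% and 41.0% in stressed mice. Plcb3, a phospholipase that Gαq activates, had 152 ± 1.98 CPM in naïve IP and 14.9 ± 1.18 CPM in naïve INPUT (SD, n = 4 per group), and the log2 ratio was 3.34 (standard error 0.07, limma adjusted p = 2.87e-14), and 3.42 in stressed mice. The GIRK subunits Kcnj9 and Kcnj3 had the lowest ratios after Rgs10 in stressed mice, −3.87 and −3.82. Of the 9 tested receptor kinases and other regulators, 8 were lower and 0 higher in naïve mice, and 7 were lower and 1 higher in stressed mice, to be read beside the same shares of all genes. After rescaling 5 were lower and 2 higher in each condition. None of the genes of these lists passed the threshold for stress in INPUT (limma), where the list medians lay between −0.02 and 0.05.

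The genes whose profile over the 16 libraries was most like that of a member were found by the root-mean-square difference of centred log2(CPM + 0.1), among 11115 genes with a mean above 5 CPM. For Rgs20 these were Gys1 (0.11), a glycogen synthase, Cpne2 (0.12) and Dmpk (0.13), which had 457%, 416% and 440% of INPUT in naïve IP. For Rgs4 they were Napb (0.12), Eno2 (0.12), the neuronal enolase, and Vstm2a (0.12), at 4.32%, 4.87% and 4.87% of INPUT. These genes were picked for the smallest distances, so their closeness is set by the choice. For Rgs2 they were Gpr75 (0.19), Prickle1 (0.20) and Sms (0.20), with 12.0%, 14.0% and 13.3% of INPUT in naïve and 14.5%, 16.5% and 13.9% in stress IP. For Rgs5 they were Exph5 (0.26), Sptbn4 (0.27) and Acyp1 (0.28), so no gene came as near to Rgs5 as to the other 3. Libraries of one fraction share most of what sets these distances.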

How the data were processed

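The deposited values are log2 CPM, 1 table for each library, made by the authors per the labels from mm10 alignments with STAR and HTSeq, edgeR and limma being also named there. The scaling uses each library's own total and no gene length. The floor of −6.40 stands for 0 reads; CPM were recovered from it, and 100% of the values gave whole reads (tolerance 0.05). Comparisons used limma 3.58.1 (R 4.3.3, lmFit and eBayes with trend) on log2(CPM + 0.1), which understates changes of low genes. Genes entered where their mean exceeded 1 CPM over the 8 libraries of a comparison, and p-values were adjusted by Benjamini-Hochberg over all of them, with 0.05 as the threshold. Fits were tested on simulated reads in which few genes differed between groups. Most genes differ between IP and INPUT, so that test does not bear on the scaling of this comparison. Exon lengths and coordinates came from GENCODE M21 (GRCm38). The paper counted reads on RefSeq genes, so these lengths may differ from those of the exons counted, and the order per kb with them. Python 3.11.15 made tables and plots. The members, gene lists and tests were chosen with earlier results of these data known. All 10 members are named; of the lists, up to 3 genes past the threshold with the largest log2 ratio in each direction of a comparison. Rgs9 was also named, as the single gene that did not pass. The alternatives were a pseudocount of 1, no filter, median-ratio rescaling, limma-voom with TMM factors, sex as read from Xist as a covariate (2 female libraries in each group), all 16 libraries in one model, each library left out in turn, and the longest transcript as length. The paper gives 4 mice in each group, 4 males and 4 females in all; the labels give neither the pairing nor the sex of a library. The labels place the swim 1 month after tamoxifen, and the methods give a shorter interval.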

Additional observations from a re-analysis of the deposited data

Results flagged for a closer look

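For Rgs3, all 4 stress IP libraries lay above the naïve IP mean and all 4 stress INPUT libraries below the naïve INPUT mean, and the log2 ratio of stress to naïve was 0.55 higher in IP than in INPUT. This difference was not tested.

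In 4 of the 40 groups of 4 libraries (10 genes in 4 groups) 1 library stood far from the other 3, where chance gives about 2, or 1 in 20. Rgs4 was 785 CPM in naïve INPUT replicate 3 and 636 to 660.1 CPM in the others. Rgs5 was 18.5 CPM in naïve INPUT replicate 14 and 24.1 to 24.7 CPM in the others. Rgs6 was 42.8 CPM in naïve IP replicate 11 and 54.5 to 56.2 CPM in the others. Rgs20 was 80.4 CPM in stress IP replicate 4 and 99.9 to 102 CPM in the others.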

How the results depend on the processing

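The counts of members higher and lower in IP than in INPUT were 3 and 6 in each condition, and 4 and 5 after median-ratio rescaling and in limma-voom, where Rgs6 turned. Its log2 ratio was 0.24 and 0.21 in naïve mice (limma adjusted p = 0.0128 and 0.0204) and 0.29 and 0.26 in stressed mice (0.000756 and 0.00154). These scalings move the median of all genes to near 0 and the calls over all genes from 3158 higher and 8540 lower to 5599 and 5635 in naïve mice, and from 3143 and 8332 to 5461 and 5505 in stressed mice (median-ratio rescaling). No alternative gave a stress call for a member in INPUT. With each library left out in turn, stress log2 ratios near 0 in INPUT changed sign, Rgs4 between −0.0394 and 0.0829, Rgs7 between −0.0152 and 0.0696 and Rgs12 between −0.0909 and 0.0139, and so did some in IP, Rgs5 between −0.02 and 0.49, Rgs14 between −0.27 and 0.13, Rgs7 between −0.05 and 0.14, Rgs6 between −0.10 and 0.03 and Rgs12 between −0.06 and 0.06. The count of members without overlap in IP ranged from 1 to 3. In INPUT that count of 0 became 1 (Rgs3) without naïve replicate 7 and 2 (Rgs2 and Rgs6) without naïve replicate 14. The share of all genes without overlap was not counted with a library left out, where groups separate more readily. No paired analysis was possible because the groups share no replicate numbers. With 4 libraries a group, the spread between libraries limits all members, and counting error adds to it where reads are few, most for Rgs14 in IP (23 to 55 reads) and also for Rgs5 (93 to 273) and Rgs2 in IP (143 to 255) and Rgs3 in INPUT (112 to 217).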
